A study of Mus musculus with 6 samples.

Results

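The SOCS family comprises the suppressors of cytokine signalling Socs1 to Socs7 and the founding relative Cish. These 8 genes were taken by symbol from the 26094 genes of a table of mRNA levels in 4T1, a mouse mammary carcinoma line that models triple-negative breast cancer. All 8 were found in the table and 7 passed the filter on low values; Socs1 did not. RNA sequencing covered 6 libraries: 3 Limch1_OE libraries from stable lines infected with a lentiviral vector (pLVX-IRES-neo) carrying mouse Limch1, and 3 Vector libraries from lines with the empty vector. All 6 were therefore infected, drug-selected cells, with virus packaged in HEK293T, a human embryonic kidney line. Whether libraries within a group stem from different infections, clones or cultures is not stated, so p-values reflect library-to-library spread alone, possibly technical. Groups were taken from the titles, because another label numbers the overexpressed gene and the line consecutively across samples.

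SOCS proteins are brakes on cytokine receptors that signal through Janus kinases (JAKs) and STAT transcription factors. Each has a central SH2 domain, which binds phosphorylated tyrosines, and a carboxy-terminal SOCS box, which recruits elongins B and C and the scaffold cullin-5 into a ubiquitin ligase. Socs1, Socs2, Socs3 and Cish are classical STAT-induced genes that close a negative feedback loop, whereas Socs4 to Socs7 act largely on growth factor and insulin signalling. In mammary epithelium the family is best known for restraining prolactin and growth hormone signalling through Stat5.

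Promoters can carry DNA elements through which cytokines act, and the sequences of Socs1 and Socs3 are shown because both genes are textbook interferon and STAT3 targets. RefSeq (GRCm38.p6, the mm10 assembly) supplied promoter windows for 4 of the 8 members, namely Socs1, Socs3, Socs4 and Cish. The 250 bases before the start were searched on both strands for the STAT element (GAS), as TTCNNNGAA or the same letters with 1 more base N between TTC and GAA, and for the interferon-type repeat, TTTC followed after any 2 bases by TTTC (GAAA and GAAA on the other strand). Capitals mark matches. The windows are chr16:10785537-10785786 (Socs1) and chr11:117969367-117969616 (Socs3), both on the minus strand and printed 5′ to 3′.
Socs1: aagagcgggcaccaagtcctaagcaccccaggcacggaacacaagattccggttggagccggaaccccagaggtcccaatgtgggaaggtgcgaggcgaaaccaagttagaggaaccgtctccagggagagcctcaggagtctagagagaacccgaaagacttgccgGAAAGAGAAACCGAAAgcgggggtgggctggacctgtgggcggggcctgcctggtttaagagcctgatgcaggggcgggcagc
Socs3: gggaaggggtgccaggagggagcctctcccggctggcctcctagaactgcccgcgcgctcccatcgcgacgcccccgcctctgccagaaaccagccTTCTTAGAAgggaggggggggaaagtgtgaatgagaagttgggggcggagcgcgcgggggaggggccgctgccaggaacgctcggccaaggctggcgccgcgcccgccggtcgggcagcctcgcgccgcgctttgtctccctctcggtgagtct

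The Socs1 window held the interferon-type repeat at 2 overlapping positions, starting 83 and 77 bases before the start. This motif was present in 3.0% of 27025 promoter windows of the same length. The Socs3 window held TTCNNNGAA once, 154 bases before the start, a motif present in 7.2% of windows; the form with 1 more base was present in 5.9%. That window overlaps an exon of Socs3-203, a noncoding transcript. None of these letters occurred in the Socs4 and Cish windows, which overlap annotated coding transcripts and are not printed. The Socs4 window overlaps transcripts of a neighbouring gene. The Cish window (chr9:107296409-107296658, plus strand) overlaps an exon of Cish-201 and lies after the annotated gene start at 107296026. The bases before that Cish start were not searched.

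Limch1 itself followed the labels: the Limch1_OE libraries, in replicate order as throughout, held 23.96, 23.31 and 25.69 FPKM, and the Vector libraries 0.25, 0.15 and 0.1. FPKM is the fragment number per kilobase of transcript, scaled to library size, here summed over the listed transcripts of a gene, so levels of different genes are on a per-length scale. Sums over all genes lay between 414837 and 425064 FPKM per library, and the depth behind them is unknown. The first principal component (74.9% of variance) separated the groups, and the second (8.98%) spread the Limch1_OE libraries, at 14.37, -4.41 and -10.61, while the Vector libraries lay between -0.13 and 0.5. Mitochondrially encoded mRNAs took 8.2, 5.89 and 6.04% of FPKM in Limch1_OE and 5.1, 4.39 and 4.42% in Vector. The epithelial identity of the line was visible in all 10 epithelial markers, which passed the filter and summed to 2067 to 2338 FPKM (Limch1_OE) and 2270 to 2318 FPKM (Vector). The leukocyte list had 10 of its 15 genes in the table, of which 7 were below 1 FPKM in both groups, including Ptprc and Itgam, each at 0 in 5 of 6 libraries. Its sums were 45.4 to 51.2 FPKM in Limch1_OE and 43.9 to 49.6 in Vector, nearly all from Cd68, Lcp1 and Cd14. These similar sums hide opposite shifts. Mean FPKM in Limch1_OE and Vector was 33.13 and 26.65 for Cd68, 10.28 and 14.36 for Lcp1, and 4.94 and 6.18 for Cd14. The fibroblast list summed to 30.8 to 32.8 FPKM in Limch1_OE and 22.0 to 24.1 in Vector, with 4 of 7 listed genes, Col1a1 and Dcn among them, below 1 FPKM. All 8 listed endothelial markers were below 1 FPKM, summing to at most 0.43 in either group. The part of the mitochondrial, leukocyte and fibroblast marker shifts in the results that follow was not tested. In bulk RNA, fewer cells expressing a gene and less RNA per cell cannot be told apart.

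Socs5 was the 1 member of the family that rose, by a log2 fold change of 0.42, and none fell. Of 7 tested members, 1 was called higher (14.3%) by limma at an adjusted p under 0.05, where 34.6% of all 11842 tested genes were called (20.2% higher and 14.4% lower). Of all calls, 58.3% were higher, and 48.1% after median-ratio scaling. An absolute log2 fold change of 1 or more was reached by 2.19% of tested genes and by 0 members. At an unadjusted p under 0.05 limma gave 2 members higher and 0 lower. The median log2 fold change of the 7 was 0.10, beside 0.04 for all tested genes. Log2 fold changes are differences of group means of log2(FPKM + 1), Limch1_OE minus Vector, and understate changes of low genes. The summed FPKM of the 8 members was 55.4 ± 2.83 with Limch1 and 49.3 ± 1.02 with the empty vector (SD, n = 3 each).

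**Figure D1:**
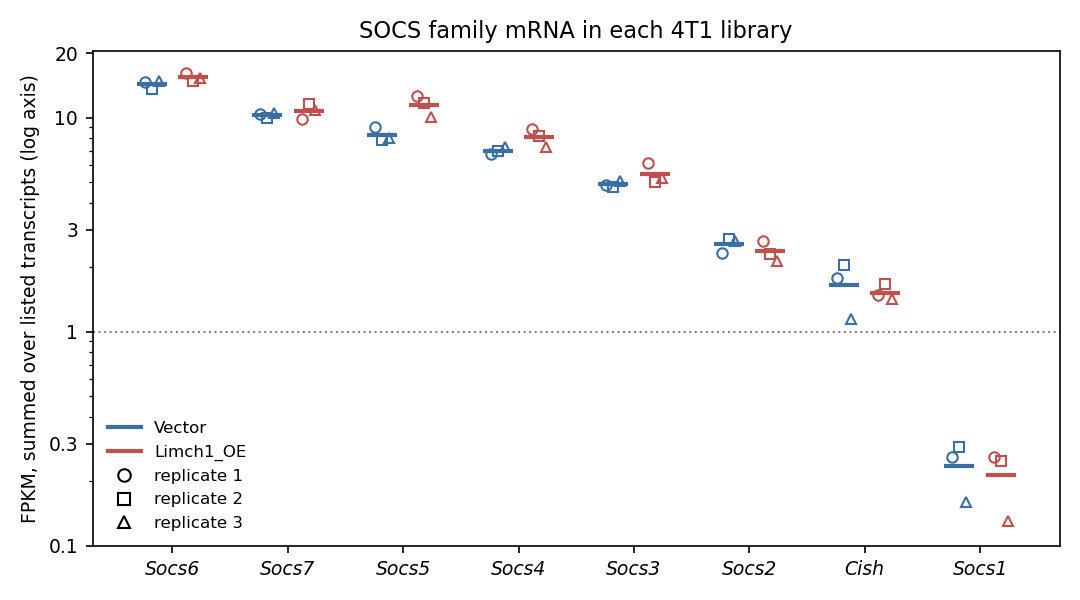
FPKM of each SOCS family gene (log axis) in the 3 Vector (blue) and 3 Limch1_OE (red) libraries, with symbols for replicates, bars for group means and a dotted line at 1 FPKM. Members run from Socs6, at 14.3 FPKM in Vector, to Socs1, at 0.237, and the red and blue points of Socs5 stand apart.

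The order of levels was almost the same in both groups. In Vector it ran Socs6, Socs7, Socs5, Socs4, Socs3, Socs2, Cish and Socs1, and the ranges of neighbours in this order did not overlap. In Limch1_OE, Socs5 and Socs7 changed places, and their ranges overlapped (10.08 to 12.67 FPKM for Socs5 and 9.85 to 11.64 for Socs7); no other neighbours overlapped. The members known for growth factor and insulin signalling, Socs4 to Socs7, were thus the abundant ones, and the classical cytokine-induced members were lower. By mean level over the 6 libraries, Socs6 stood at percentile 56.6 of tested genes, Socs3 at 26.4, Socs2 at 12.7 and Cish at 6.9.

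Among the cytokine-induced members, Socs1 encodes the strongest inhibitor of JAK kinase activity and of interferon signalling. Its FPKM was 0.26, 0.25 and 0.13 with Limch1 overexpressed and 0.26, 0.29 and 0.16 in Vector. The groups overlapped, and an exact permutation test (two-sided, difference of means) gave p = 0.6. No difference was detectable at these levels, and the gene was tested by limma only without the filter (log2 fold change -0.03, limma adjusted p = 0.818).

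Socs3, the feedback inhibitor of gp130 receptors and of Stat3, was at 6.14, 5.02 and 5.22 FPKM in Limch1_OE and at 4.87, 4.75 and 5.04 in Vector. Limch1_OE replicate 1 was the highest library, and Limch1_OE replicate 2 lay below Vector replicate 3. The log2 fold change was 0.13 (SE 0.08, 95% interval -0.06 to 0.32, limma adjusted p = 0.258). Intervals for single genes are not adjusted for the number of genes.

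Socs2, which limits growth hormone signalling, was at 2.66, 2.3 and 2.15 FPKM in Limch1_OE and at 2.32, 2.72 and 2.65 in Vector. Cish, a STAT5-induced inhibitor named for its SH2 domain, was at 1.48, 1.67 and 1.42 FPKM in Limch1_OE and at 1.78, 2.05 and 1.15 in Vector. Both genes overlapped between the groups, and Vector replicates 2 and 3 held the highest and the lowest Cish value of all. The log2 fold change of Socs2 was -0.08 (95% interval -0.30 to 0.13, limma adjusted p = 0.540). That of Cish was -0.06 (95% interval -0.37 to 0.25, limma adjusted p = 0.754), and it stood at 0.04 without Vector replicate 2. The Cish interval is the widest of the family, so a moderate change in either direction is not excluded by these libraries.

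Among the members tied to growth factor signalling, Socs5, an inhibitor of epidermal growth factor receptor and interleukin-4 signalling, differed most. It was at 12.67, 11.7 and 10.08 FPKM in Limch1_OE and at 9.01, 7.87 and 8.0 FPKM in Vector. Every Limch1_OE library lay above every Vector library, the narrowest gap being between Limch1_OE replicate 3 and Vector replicate 1. The means were 11.5 ± 1.31 and 8.29 ± 0.624 FPKM (SD, n = 3 each). The log2 fold change was 0.42 (SE 0.09, 95% interval 0.22 to 0.63, limma adjusted p = 0.00737). A log2 fold change at least as large was found for 6.39% of all tested genes. The call held without Limch1_OE replicate 1, the library with the highest Socs5 value, at 0.35 (limma adjusted p = 0.0206). Socs5 lies on chromosome 17 (mm10, 87107679 to 87137839, plus strand).

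Socs4, the closest relative of Socs5 and likewise linked to degradation of the epidermal growth factor receptor, was at 8.89, 8.2 and 7.29 FPKM in Limch1_OE and at 6.78, 6.98 and 7.28 FPKM in Vector. The groups did not overlap, but Limch1_OE replicate 3 and Vector replicate 3 differed only in the last printed digit. The log2 fold change was 0.18 (SE 0.08, 95% interval 0.01 to 0.36) and did not pass the test (limma adjusted p = 0.103). Without Limch1_OE replicate 3 it was 0.25 and passed (limma adjusted p = 0.0345). Whether the responses of Socs4 and Socs5 differ was not tested.

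Socs6 and Socs7 bind insulin receptor substrates and receptor tyrosine kinases. Socs6 was at 16.14, 14.86 and 15.3 FPKM in Limch1_OE and at 14.65, 13.54 and 14.84 FPKM in Vector. Again the groups did not overlap, by the last printed digit. The log2 fold change was 0.10 (95% interval -0.04 to 0.24, limma adjusted p = 0.232), and with the most abundant transcript alone it was -0.23. Annotated pseudogenes overlap Socs6 and Cish, at 0.53 FPKM or less where listed, and strand use in the counting is not given in the sources used here. Socs7 was at 9.85, 11.64 and 10.85 FPKM in Limch1_OE and at 10.41, 9.93 and 10.49 in Vector, which overlap, and its change was 0.06 (95% interval -0.10 to 0.22, limma adjusted p = 0.540). Groups without overlap were thus seen for Socs4, Socs5 and Socs6, 3 of 7 tested members, each higher in Limch1_OE, where 49.1% of all tested genes did not overlap (28.6% higher and 20.5% lower). The exact permutation p was 0.1 for each, the smallest that 3 libraries against 3 allow.

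Within the family, Socs5 took 20.7 ± 1.33% of the summed FPKM in Limch1_OE and 16.8 ± 1.02% in Vector, and Socs6 27.9 ± 1.24% and 29.1 ± 0.9% (SD, n = 3 each). Socs1 contributed 0.38% and 0.48%. The Socs5 share lay between 19.22 and 21.81% in Limch1_OE and 16.13 and 17.99% in Vector, without overlap. The Socs2 share did not overlap either, at 4.58, 4.13 and 4.1% in Limch1_OE and 4.63, 5.65 and 5.34% in Vector, lower with Limch1. Shares are parts of a common sum, so a higher Socs5 share lowers those of the rest, and the FPKM of Socs2 itself overlapped. The shares of the other 6 members overlapped. How often such shares do not overlap in other families was not computed. For gene FPKM, 49.1% of all tested genes did not overlap.

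The tested genes whose profiles lay closest to that of Socs5 over the 6 libraries were Zfp74, Cdc42ep3 and Fam76b. Closeness was the root mean square difference of mean-centred log2(FPKM + 1) values, which was 0.04, 0.0403 and 0.041. Zfp74 encodes a zinc finger protein and changed by 0.42, Cdc42ep3 encodes a Cdc42 effector and changed by 0.42, and Fam76b changed by 0.37. With the most abundant transcript the Zfp74 and Fam76b calls ended (limma adjusted p = 0.0604 and 0.103), as did that of Fam76b with protein-coding transcripts only (0.0525). Each of these genes was highest in a Limch1_OE library and lowest in a Vector library. Such a rise follows from the choice by closeness to Socs5 and is no separate result. The nearest coding genes on either side of Socs5 moved less. Cript, a synaptic scaffold-binding protein gene 71869 bases away, stood at -0.06 (limma adjusted p = 0.359). Mcfd2, a cargo receptor subunit gene 116604 bases away on the other side, had 0.16 (limma adjusted p = 0.0318). The Mcfd2 call ended without Vector replicate 1, 2 or 3 or Limch1_OE replicate 2 (limma adjusted p = 0.0686 to 0.121), and with the replicate block (0.0565), median-ratio scaling (0.0774), no intensity trend (0.0535) or the most abundant transcript (0.291).

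Transcript rows showed where the sums come from. The table lists 35 transcripts of the 8 members, 11 of which passed the same filter, and limma over all 19905 tested transcripts called 0 of the 11 (2 at an unadjusted p under 0.05), beside 7.24% of all transcripts (3.12% higher and 4.12% lower). Socs5-201, the main coding transcript, carried 89.1, 90.3 and 92.4% of Socs5 in Limch1_OE and 91.9, 95.6 and 98.4% in Vector. Its log2 fold change was 0.35 (95% interval 0.13 to 0.58), with a limma adjusted p of 0.0818 over transcripts.

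Socs6 divided its signal between coding transcripts that hold the same open reading frame length (1599 bases) and differ in the annotated 3′ untranslated region, 4019 bases in Socs6-201 and 693 in Socs6-203. Socs6-203 was at 5.39, 6.38 and 6.23 FPKM in Limch1_OE and at 2.3, 2.33 and 4.62 in Vector. Socs6-201 was at 5.62, 4.79 and 4.59 FPKM in Limch1_OE and at 6.73, 5.75 and 5.68 in Vector. Socs6-203 was thus higher and Socs6-201 lower in Limch1_OE without overlap, with Vector replicate 3 nearest to the Limch1_OE libraries for Socs6-203. Their log2 fold changes were 0.82 (95% interval 0.23 to 1.41, limma adjusted p = 0.105) and -0.23 (95% interval -0.52 to 0.05, limma adjusted p = 0.277), and neither passed. Their annotated 5′ untranslated regions differ too, at 519 and 415 bases. Socs6-202, with the same reading frame length, also has a shorter 3′ untranslated region than Socs6-201 (1014 bases), but did not rise. It averaged 0.85 FPKM in Limch1_OE and 1.35 in Vector, with overlap (log2 fold change -0.34, limma adjusted p = 0.315). The share of Socs6-203 in the gene was 39.0 ± 5.0% with Limch1 and 21.3 ± 8.5% with the empty vector (SD, n = 3 each, exact permutation p = 0.1). Among tested transcripts, 4 of 11 from the family did not overlap between groups, against 33% of all transcripts (19% higher and 13.9% lower). How reads were divided between overlapping transcripts is not given in the sources used here, and these rows were singled out after their values were seen.

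**Figure D2:**
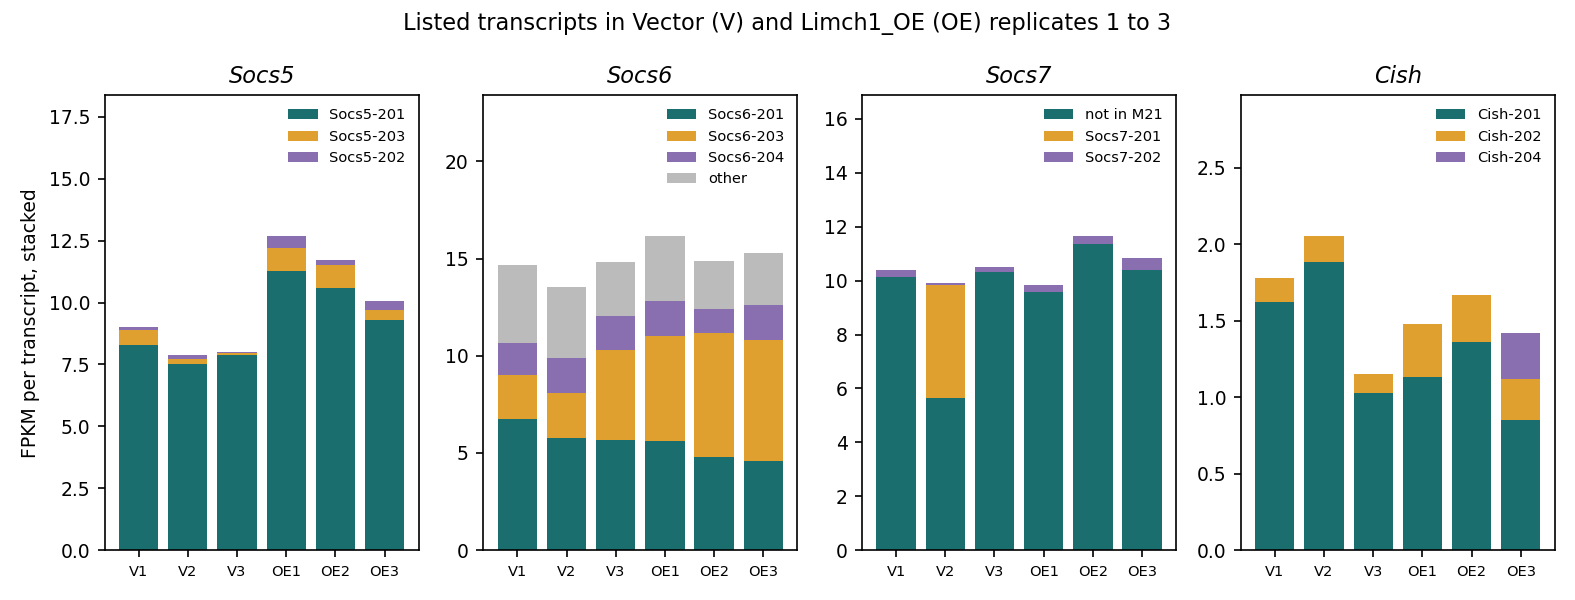
Stacked FPKM of the listed transcripts of Socs5, Socs6, Socs7 and Cish in Vector (V) and Limch1_OE (OE) replicates 1 to 3; the 3 most abundant transcripts of each gene are coloured and any others are grey. The orange Socs6-203 segment is taller in the Limch1_OE bars, and the orange Socs7-201 segment is present in Vector replicate 2 alone.

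Socs7 gave a measure of how unstable such a division can be. Socs7-201 was at 4.20 FPKM in Vector replicate 2 and listed at 0 in the other 5 libraries, while a transcript that the annotation used here does not hold (ENSMUST00000238729) carried 56.7% of Socs7 there and 95.7 to 98.3% elsewhere. The gene sum did not show this jump. For Cish, the coding Cish-201 was at 1.13, 1.36 and 0.85 FPKM in Limch1_OE and at 1.62, 1.88 and 1.03 in Vector, overlapping. The noncoding Cish-202 was at 0.35, 0.31 and 0.27 FPKM in Limch1_OE and at 0.16, 0.17 and 0.12 in Vector, without overlap but below the filter.

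The members share a gene structure that the choice of genes did not use. In the principal transcript, 5 of 8 members (Socs1, Socs3, Socs4, Socs5 and Socs6) have their coding sequence in 1 exon, against 4.66% of 9881 other tested genes; Socs2 has 2 coding exons, Cish 3 and Socs7 9. The annotated 3′ untranslated region of the principal transcript is 5182 bases in Socs4, 5184 in Socs7, 4019 in Socs6, 2595 in Socs5 and 1087 to 1993 in the other members, with a median of 1063 over the other genes. This was not always the form with most signal: the principal Socs7-201 was listed at 0 in 5 libraries, and in Limch1_OE Socs6-203, with 693 bases, had a larger mean share than Socs6-201 (39.0 and 32.3%). The pentamer ATTTA, the core of AU-rich elements that shorten mRNA life, occurred 17 times in the Socs4 3′ untranslated region, 10 times in Socs6, 5 in Socs7, 4 each in Socs3 and Socs5, 3 in Cish, 2 in Socs2 and 0 in Socs1. Per kilobase this was 3.28 in Socs4, 2.76 in Cish, 2.71 in Socs3, 2.49 in Socs6, 1.72 in Socs2, 1.54 in Socs5, 0.96 in Socs7 and 0 in Socs1, and the median of other genes was 1.38. These are counts of letters and describe no measured decay.

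Several related groups of genes, described next by role, had a larger share of calls than the SOCS genes, a difference that was not itself tested. The share over all tested genes, to be read beside each count, was 34.6% (20.2% higher and 14.4% lower).

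**Figure D3:**
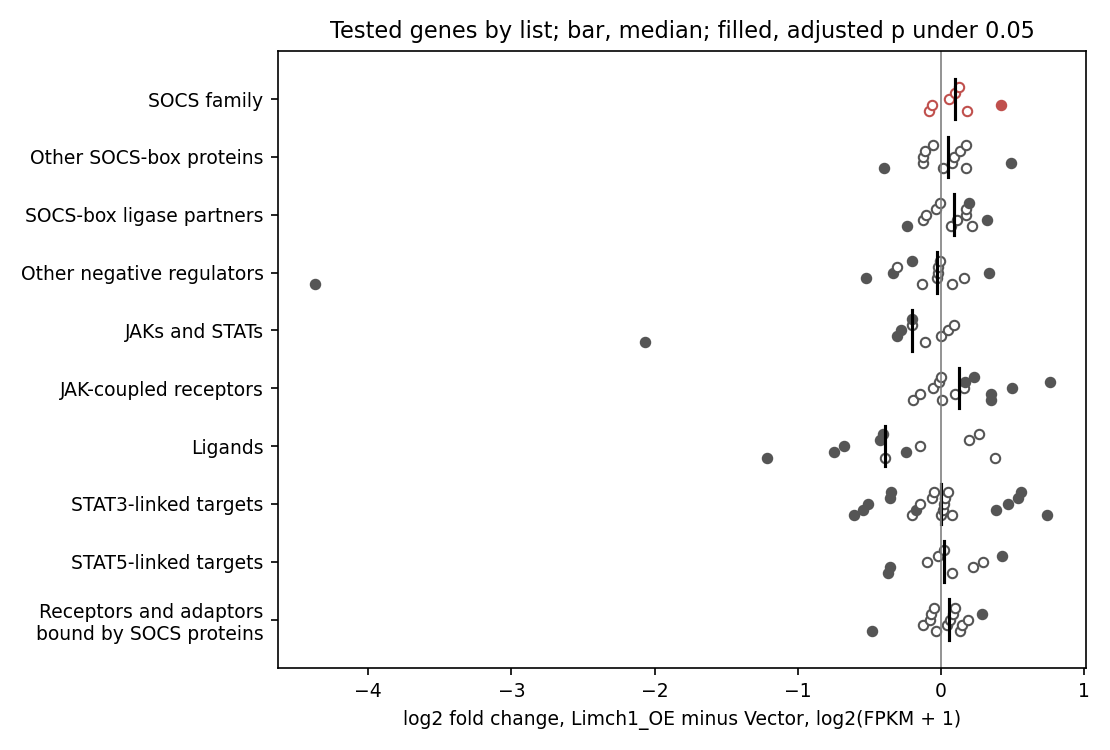
Log2 fold changes (Limch1_OE minus Vector) of the tested genes of the SOCS family (red) and of 9 related gene lists (grey); bars are medians and filled points have a limma adjusted p under 0.05. The SOCS genes lie between -0.08 and 0.42, and the point farthest to the left, among the other negative regulators, is Usp18 at -4.37.

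Upstream, the ligands that signal through JAKs were lower in 6 of 11 tested cases, with 0 higher by limma (1 at an unadjusted p under 0.05) and a median of -0.39. Lif, a gp130 ligand and inducer of Socs3, was at 20.43, 19.22 and 20.49 FPKM in Limch1_OE and at 32.27, 33.1 and 32.57 in Vector (log2 fold change -0.68, limma adjusted p = 1.76e-05). Csf3, encoding the neutrophil growth factor G-CSF, whose signalling Socs3 restrains, was at 56.93, 58.27 and 62.7 FPKM in Limch1_OE and at 99.66, 105.01 and 95.64 in Vector (-0.75, limma adjusted p = 2.04e-05). Il15 changed by -1.21 and Tslp by -0.43, although neither passed when only the most abundant transcript was used (-0.84 and -0.06). Csf2 had -0.39 and did not pass (limma adjusted p = 0.0562), but it passed with the replicate block (0.0303), median-ratio scaling (0.0478) and quantile normalization (0.0295). Il6 was at most 0.39 FPKM in any library. With the most abundant transcript, 3 of the ligand genes were called lower and 1 higher, and without Limch1_OE replicate 3 likewise 1 was called higher.

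Of 14 tested JAK-coupled receptor genes, 6 rose and 0 fell by limma (0 also at an unadjusted p under 0.05). Il6st, which encodes gp130, the receptor subunit that Socs3 docks on, was at 34.17, 31.99 and 30.6 FPKM in Limch1_OE and at 25.36, 25.3 and 24.37 in Vector (0.35, limma adjusted p = 0.00167). Ifnar1 (0.35), Ifnar2 (0.76) and Il10rb (0.50) rose too. Together with Ifngr2 (0.17, limma adjusted p = 0.0384) they lie in one stretch of chromosome 16 (mm10, 91372783 to 91565623). Outside this stretch only Il6st and Ifngr1 were called. Leaving out each library gave 4 to 5 receptor genes called higher. The interferon-gamma receptor gene Ifngr1 passed narrowly (0.23, limma adjusted p = 0.0450), and its call ended without Vector replicate 2 or 3 or Limch1_OE replicate 1 or 3 (0.0789 to 0.134), with no filter, with either rescaling, with the most abundant transcript and without the intensity trend (0.0542 to 0.125). The oncostatin M receptor gene Osmr had 0.00 (limma adjusted p = 0.996). Ghr, the growth hormone receptor that Socs2 targets, had -0.19 and did not pass (limma adjusted p = 0.132), though it passed at -0.28 without Limch1_OE replicate 1 (0.0345). Prlr, the prolactin receptor gene, was listed at 0 in 5 libraries and at 0.01 FPKM in Limch1_OE replicate 1.

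Of 9 JAK and STAT genes considered, 4 fell and 0 rose by limma (0 also at an unadjusted p under 0.05). These were Stat2 (-2.07), Jak3 (-0.30), Stat6 (-0.28) and Stat5b (-0.20). The Stat5b call (limma adjusted p = 0.0356) ended without Vector replicate 1, 2 or 3 or Limch1_OE replicate 1 or 2 (0.0583 to 0.118), with the replicate block (0.0630), with no filter (0.0698), with the most abundant transcript (0.0939) and with protein-coding transcripts only (0.0520). With either choice of transcripts, 2 JAK and STAT genes were called lower. Jak3 then stood at -0.21 with the most abundant transcript (limma adjusted p = 0.557) and at -0.10 with protein-coding transcripts only (0.696). Jak1 (-0.11), Jak2 (0.05), Tyk2 (0.09), Stat3 (-0.20) and Stat5a (0.00) did not pass, with limma adjusted p between 0.0938 for Stat3 and 0.984 for Stat5a.

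Downstream of STAT3, 5 of 21 tested targets rose and 6 fell, with a median of 0.00. Lcn2 rose by 0.74 and Vegfa by 0.56, while Klf4 and Junb had -0.60 and -0.54. Of 9 tested STAT5-linked genes, the kinase gene Pim2 rose by 0.43, and the cyclin genes Ccnd1 and Ccnd2 had -0.36 and -0.37, both called lower. Neither list moved in a common direction.

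Other brakes on JAK-STAT signalling were split. Of 13 tested, 4 fell and 1 rose, with 2 lower without Vector replicate 1 or 2. Usp18, which blocks the type I interferon receptor, was at 6.73, 7.62 and 7.67 FPKM in Limch1_OE and at 171.56, 167.74 and 175.25 in Vector (log2 fold change -4.37, limma adjusted p = 9.99e-10). The tyrosine phosphatase genes Ptpn1 and Ptpn2, which dephosphorylate JAKs, had 0.00 and 0.08 (limma adjusted p = 0.977 and 0.313). Pdlim2, a STAT ubiquitin ligase gene, had -0.52 (-0.21 and not passing with the most abundant transcript). Among the PIAS genes, inhibitors of STAT binding to DNA, Pias3 had -0.33 and Pias2 0.34. The Pias3 call ended without Vector replicate 1 or 2 (limma adjusted p = 0.0554 and 0.0502), and the Pias2 call without Vector replicate 1 or 3 (0.0512 and 0.0510). Both also ended with no filter (0.0570 and 0.0718) and with the most abundant transcript, where Pias3 had -0.40 (0.331) and Pias2 0.14 (0.665). The lower limit of the 95% interval of every tested SOCS gene was -0.37 or higher. Set beside Usp18 this decides nothing, because no SOCS gene had a level from which it could fall as far on this scale.

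**Figure D4:**
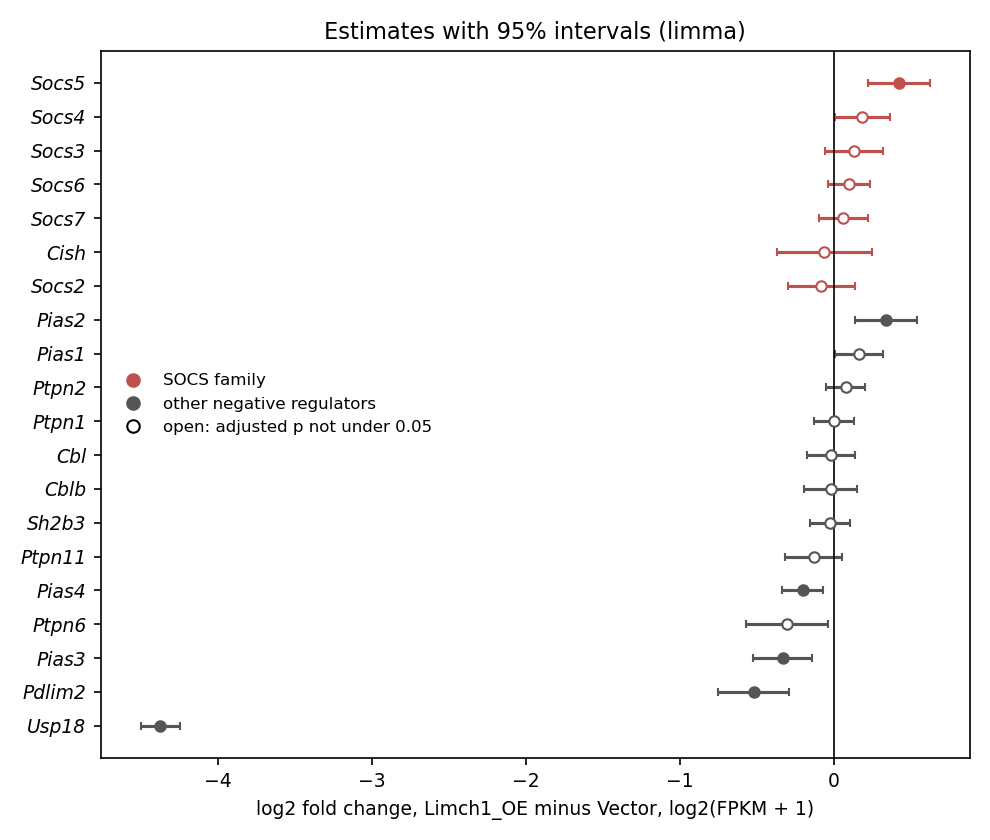
Log2 fold changes with 95% limma intervals (not adjusted for the number of genes) for the 7 tested SOCS genes (red) and 13 other negative regulators of JAK-STAT signalling (grey); open points did not pass the test. Usp18 stands at -4.37, whereas Socs5, at 0.42, is the only filled red point.

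Of 12 genes listed as ubiquitin ligase partners of the SOCS box, 2 were called higher, 1 lower and 9 had no call. The list reaches beyond elongins B and C and cullin-5, to Cul2, Rbx1, Nedd8 and Arih1 among others. This was a share of 25% called, beside 34.6% of all tested genes. The number higher was 0 without Vector replicate 1 or 2 or Limch1_OE replicate 1 or 2, 1 without Vector replicate 3 and 4 without Limch1_OE replicate 3. Elob, encoding elongin B, averaged 134 ± 2.47 FPKM with Limch1 and 135 ± 7.15 with the empty vector (SD, n = 3 each). Eloc, encoding elongin C, had 0.32 (limma adjusted p = 0.0283), and the RING subunit gene Rnf7 had -0.24 (0.0233). The Eloc call ended without Vector replicate 1 or 2 or Limch1_OE replicate 1 or 2 (0.0757 to 0.0933), with the replicate block (0.0560) and with no filter (0.103). The Rnf7 call ended without Vector replicate 1 or 3 or Limch1_OE replicate 1 (0.0526 to 0.0760), with no filter (0.0668) and with the most abundant transcript (0.0598). The other gene called higher, Arih1, had 0.20 (limma adjusted p = 0.0428). Its call ended without Vector replicate 1, 2 or 3 or Limch1_OE replicate 1 or 2 (0.0651 to 0.121). It also ended with no filter (0.0996), median-ratio scaling (0.0838), no intensity trend (0.0650) or the most abundant transcript (0.0862). Cul5 had 0.11 (limma adjusted p = 0.467). Of 12 other tested SOCS-box genes (16.7% called), Neurl2 rose by 0.49 and Asb13 had -0.40, called lower. The Neurl2 call ended without Limch1_OE replicate 2 (limma adjusted p = 0.0501) and with no filter on low values (0.0584). The Asb13 call ended without Vector replicate 2 (0.0540), with no filter (0.0801) and with the most abundant transcript (0.0506). Of 14 tested receptors and adaptors that SOCS proteins bind (14.3% called), Igf1r rose by 0.29 and Erbb3 had -0.48, called lower, and the other 12 had no call. These include Irs1 and Irs2, the insulin receptor substrates, and Erbb2. Egfr, the epidermal growth factor receptor gene, was at 0.68, 0.56 and 0.59 FPKM in Limch1_OE and at 0.35, 0.38 and 0.23 in Vector. It was below the filter and not tested by limma.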

How the data were processed

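The deposited table gives FPKM per transcript for each of 6 libraries, to 2 decimals; the authors made these values, per the file headers. Per the submitters' processing notes the build was mm10 and the tools, with no role given, included StringTie 2.2.1, featureCounts 2.0.1, fastp 0.23.2 and STAR 2.7.10. Not given in the sources used here are the annotation release, strand and the handling of reads with several matches. Depth is unknown, so no counting intervals are given.

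Transcripts (77865) were summed per gene (26094), with symbols for 26033 from GENCODE M21. Genes at 1 FPKM or more in at least 3 libraries (11842) were tested with limma 3.58.1 in R 4.3.3 (eBayes with trend) on log2(FPKM + 1), Benjamini-Hochberg adjusted over all tested genes, threshold 0.05. The script was tested on simulated data. Single values used exact two-sided permutation tests (SciPy 1.17.1). The members and lists were chosen with earlier results of these data known. Named genes are the members, Limch1, at most 4 called genes with the largest changes per list, fixed JAK-STAT genes, and neighbours and the 3 closest profiles of called members. Ifngr2 and Egfr are given besides for context and were not followed singly through the alternatives. Markers of other cell types were included. One gene and the list built around it are not reported here. Alternatives changed pseudocount, filter, scaling, transcript choice, trend, replicate block and libraries; the transcript-level fit was added after seeing the data.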

Additional observations from a re-analysis of the deposited data

How the results depend on the processing

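Socs5 kept its direction and its call under 15 gene-level alternatives, with log2 fold changes from 0.35 to 0.51; in the added transcript-level fit Socs5-201 did not pass (0.35, limma adjusted p = 0.0818). Leaving out each library gave 1 to 2 members called higher and 0 lower, and 2 only without Limch1_OE replicate 3. It gave 1578 to 2147 of all tested genes higher and 1207 to 1552 lower, and 16 to 22 higher among the related lists. With the most abundant transcript per gene, 997 genes were higher, 999 lower and 13 genes of the related lists higher and 19 lower (21 and 30 with sums). With protein-coding transcripts only, 1534 were higher. Median-ratio scaling gave 1900 higher and 2052 lower, beside 2387 and 1706 as deposited; Socs5 was then 0.39. Signs turned, without a call before or after except for Postn, for Socs6 with the most abundant transcript (-0.23), which is Socs6-201 (-0.23). They also turned for Cish when libraries were left out (-0.21 to 0.04), and likewise for Elob (-0.03 to 0.04), Jak2 (-0.02 to 0.13), Osmr (-0.08 to 0.07), Ptpn1 (-0.02 to 0.02) and Stat5a (-0.03 to 0.04). Elob was 0.03 with quantile normalization. Stat5a was -0.03 with median-ratio scaling, -0.05 with quantile normalization and -0.08 with the most abundant transcript, under which Osmr was 0.00, Ptpn1 0.26, Ptpn2 -0.06 and Postn -0.34, whose call was lost. Ptpn1 was 0.26 with protein-coding transcripts only. Apart from fewer features or libraries, the cause was not tested. Limch1 lay between 4.40 and 6.55 wherever tested; without a Limch1_OE library it failed the filter. Socs7 has no value with protein-coding transcripts only, and Socs2 and Cish none at 5 FPKM.

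Replicate numbers are shared between groups, but same-numbered libraries did not deviate together (r = -0.002, 0.046 and 0.059), and Vector replicate 1 was closest to Limch1_OE replicate 2. With the replicate block, 2219 genes were higher and 1589 lower, 1 member was higher and 0 lower, 19 related genes were higher and 29 lower (among named genes, Eloc, Stat5b and the Socs5 neighbour Mcfd2 lost calls and Csf2 gained one), Limch1 was 4.44, and Socs5 stayed at 0.42 (limma adjusted p = 0.00628).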
